A study of Mus musculus with 9 samples.

Results

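The miRNA precursors mmu-mir-144, mmu-mir-451a, mmu-mir-486a and mmu-mir-486b, which are abundant in red blood cells, were followed through 9 small RNA libraries of mouse atrial appendages. They were chosen by name, as 4 of the 661 miRNA precursors and 994 small RNA features that the libraries held. All 4 were listed in every library and all 4 passed the filter on low counts that left 520 features, 209 of them miRNA precursors. The mice were C57BL/6 in 3 groups of 3 libraries: young mice of 5 months without curcumin, old mice of 18 months without curcumin, and mice of 18 months that had received 100 mg/kg of curcumin daily in skim milk from the age of 12 months. The labels count 3 mice in a group without tying a mouse to a library, so p-values measure the spread between these samples. The sources used here do not give the sex of the mice, whether the untreated ones received the milk, or whether blood was flushed from the tissue.

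miR-144 and miR-451a are cut from a shared primary transcript that the transcription factor GATA1 switches on as erythroid cells mature. Red blood cells lose their nucleus but keep these miRNAs, and miR-451a is among the most abundant miRNAs of blood, so both are read in tissue as a sign of blood. miR-451a is an exception among miRNAs because Argonaute 2 cuts its short hairpin and Dicer is not needed. miR-486 lies in the gene of ankyrin 1, a protein of the red cell membrane skeleton, and is made in erythroid cells as well as in skeletal and heart muscle.

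On the GRCm38 (mm10) genome the hairpin of miR-144 lies at chr11:78073005-78073070 and that of miR-451a at chr11:78073170-78073241, both on the plus strand, 99 bases apart and outside any other annotated gene except mir-451b, which is annotated on the opposite strand of miR-451a. mir-451b was not listed in any of the 9 libraries. miR-486a (annotated as Mir486) lies at chr8:23142555-23142682 on the plus strand and miR-486b (annotated as Mir3107) at chr8:23142573-23142662 on the minus strand. Both lie in an intron of Ank1 and in an intron of the antisense gene Gm15816, and overlap no exon of either.

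The mature miRNAs of the chromosome 11 pair are shown with the seed, bases 2 to 8, in capitals, because the seed sets which transcripts a miRNA can bind. The sequences are RefSeq's on GRCm38.p6, 5′ to 3′.
mmu-miR-144-5p: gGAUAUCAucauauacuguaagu
mmu-miR-144-3p: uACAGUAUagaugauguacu
mmu-miR-451a: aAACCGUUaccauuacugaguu
mmu-miR-101a-3p: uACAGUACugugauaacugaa
The 3 mature miRNAs of the pair had 3 different seeds, and no other of the 1679 mature miRNAs in the RefSeq table shared bases 2 to 8 with any of them. Bases 2 to 7 of miR-144-3p were shared with 1 of them, miR-101a-3p, which is shown for comparison. The pair is therefore related by position and transcript, not by seed.

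The hairpins are shown with the mature parts in capitals, because the place of the mature RNA differs between them.
Mir144 hairpin: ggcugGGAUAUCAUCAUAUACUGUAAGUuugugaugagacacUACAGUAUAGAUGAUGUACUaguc
Mir451a hairpin: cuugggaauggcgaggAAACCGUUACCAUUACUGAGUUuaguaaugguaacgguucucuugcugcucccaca
In the fold predicted by RNAfold the 23 bases of miR-144-5p lay before the end loop of the 66-base hairpin, and the 20 bases of miR-144-3p after it. The mature miR-451a ran from base 17 to base 38 of its 72-base hairpin, with 18 bases before the loop and 4 in the loop itself. The deposited values are per precursor, so reads of miR-144-5p and miR-144-3p cannot be told apart in them.

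The libraries held 12899427 to 19707803 clean reads, of which 1.23% to 4.66% were miRNA, with the highest share in young replicate 1. The 3 libraries numbered 1 had 72.2% to 73.7% of clean reads on the genome and the other 6 had 65.0% to 68.3%. Heart muscle was plainly represented, with miR-1a-2 at 2483 to 8544 CPM (counts per 1000000 feature reads, with edgeR's TMM scaling) and miR-208a, which is encoded in a heart myosin gene, at 15.8 to 32.6 CPM. miR-133a-1 stood at 186 CPM on average, while miR-499, miR-206, miR-1b and miR-208b, also on the muscle list, were below 1 CPM in every library. Endothelial miR-126a stood at 7685 CPM on average.

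miR-144 was rare in 8 libraries and abundant in 1. Its level was 76.7, 3.50 and 7.10 CPM in young replicates 1 to 3, 3.56, 3.49 and 3.16 CPM in old replicates 1 to 3, and 3.31, 8.02 and 6.66 CPM in curcumin replicates 1 to 3. Young replicate 1 therefore stood 9.57-fold above the next library, and the other libraries lay within a 2.54-fold range in which the groups overlapped. The reads behind these levels were 1591 in young replicate 1 and between 38 and 143 in the other 8. As a share, young replicate 1 held 80.7 miR-144 reads per 1000000 clean reads (95% Wilson interval 76.9 to 84.8) and young replicate 2 held 2.43 (1.77 to 3.33). The intervals do not touch. They hold the error of counting within 1 library and not the spread between mice or preparations. PCR copies of 1 molecule are counted apart, so they may be too narrow even for that error.

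miR-451a had the same pattern at a higher level. It stood at 167, 4.33 and 16.5 CPM in the young, 6.62, 11.9 and 4.31 CPM in the old and 4.85, 13.6 and 14.1 CPM in the curcumin-treated replicates 1 to 3. Young replicate 1 was 10.1-fold above the next library, young replicate 3, and the other 8 spanned a 3.83-fold range. In young replicate 1 miR-451a was the miRNA precursor of rank 38 by level, while its median rank over the libraries was 86. Young replicate 2 had fewer miR-451a reads, 47, than any other library, so the young group held both the highest and the lowest count of this miRNA.

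The miR-486 precursors lay within the range of the other libraries in young replicate 1. miR-486a stood at 18.9, 24.3 and 38.9 CPM in the young, 18.6, 22.0 and 18.8 CPM in the old and 8.63, 17.2 and 19.0 CPM in the curcumin-treated replicates 1 to 3. miR-486b stood at 18.5, 22.9 and 36.7 CPM, then 17.8, 21.1 and 17.7 CPM, then 8.63, 17.2 and 18.3 CPM in the same order. Young replicate 3 was highest and curcumin replicate 1 lowest for both precursors. Young replicate 1 lay at 1.00 and 1.02 times the median of the other libraries. The precursors overlap on opposite strands, and 8 of the 9 values of each were not whole numbers, so reads had been divided between them. Their ratio was 1.00 to 1.07 in every library, and the 2 values cannot be read as independent measurements.

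**Figure D1:**
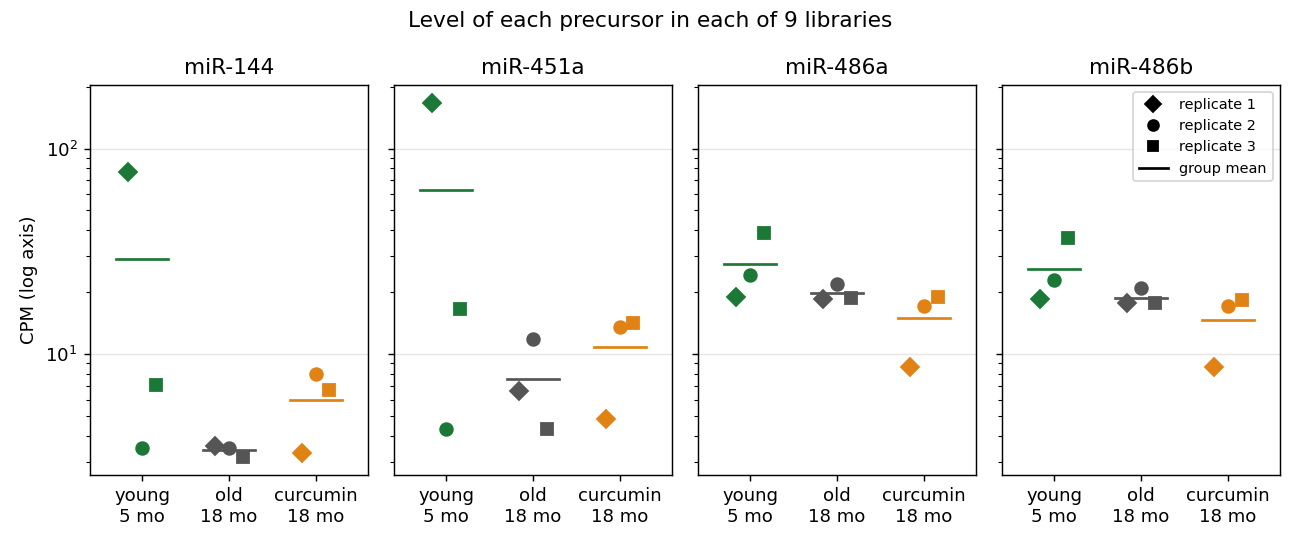
CPM of each precursor (log axis) in the 9 libraries, by group, with the replicate number as marker shape and a line at each group mean. For miR-144 and miR-451a the young mean is drawn up by replicate 1 at 76.7 and 167 CPM, while miR-486a and miR-486b are highest in young replicate 3 and lowest in curcumin replicate 1.

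Ratios within a library do not depend on how libraries are scaled. miR-451a had 2.18 reads per miR-144 read in young replicate 1, inside the 1.24 to 3.41 of the other 8 libraries, so both miRNAs of the transcript were raised in a similar proportion. miR-144 and miR-451a together had 6.52 reads per miR-486 read in young replicate 1 and 0.166 to 0.630 in the others. They made up 86.7% of the reads of all 4 precursors there and 14.3% to 38.7% elsewhere. Among the other libraries this ratio was 0.166 and 0.312 in young replicates 2 and 3, 0.280, 0.357 and 0.205 in old replicates 1 to 3 and 0.473, 0.630 and 0.557 in curcumin replicates 1 to 3. The curcumin values lay above all old values and above those of young replicates 2 and 3. Curcumin replicate 1 had the lowest summed miR-486 of all libraries, 17.3 CPM. miR-144 plus miR-451a stood at 8.15, 21.6 and 20.8 CPM in curcumin replicates 1 to 3. In old mice the pair summed to 7.47 to 15.4 CPM. In young replicates 2 and 3 it summed to 7.83 and 23.6 CPM, and young replicate 3 had the highest miR-486, 75.6 CPM. Per miRNA read the pair was higher in young replicate 3 and old replicate 2 than in any curcumin library. No test was made on the ratio of miR-144 plus miR-451a to miR-486.

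**Figure D2:**
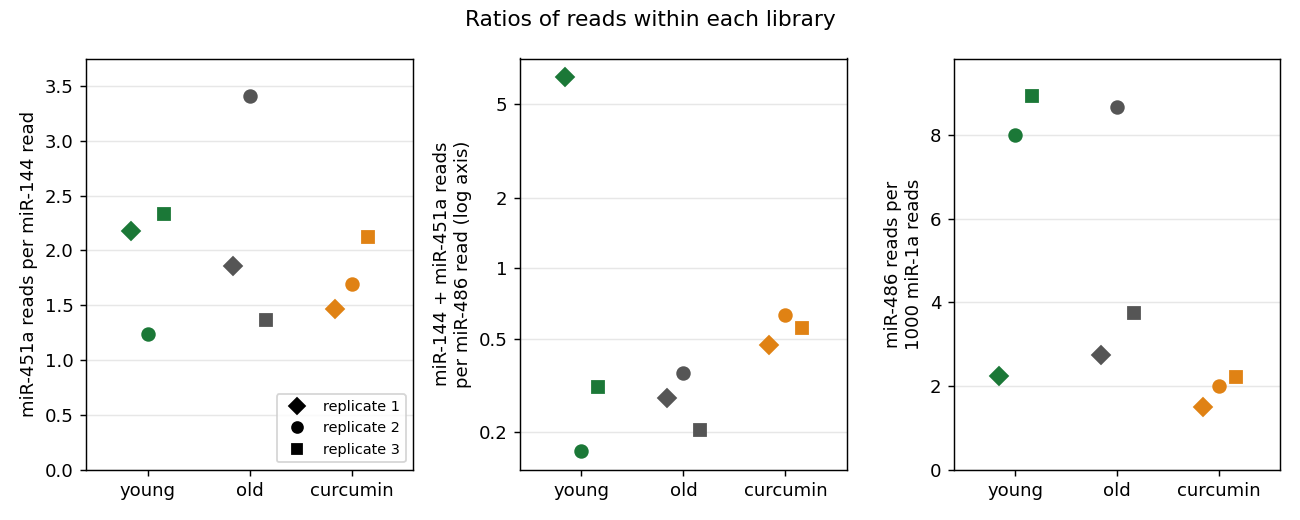
Reads of miR-451a per miR-144 read, reads of miR-144 plus miR-451a per miR-486 read (log axis), and reads of miR-486 per 1000 reads of the muscle miRNA miR-1a, in each library by group, with the replicate number as marker shape. Young replicate 1 lies inside the other libraries in the first panel (2.18) and far above them in the second (6.52). The curcumin libraries (0.473 to 0.630) lie above the old ones (0.205 to 0.357) in the second panel, and no test was made on that ratio.

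Set against all 209 tested miRNAs, the excess of the pair in young replicate 1 was the largest. In that library miR-144 was 21.7-fold and miR-451a 18.1-fold above the median of the other 8, the first and second places. Next came miR-19a at 8.91-fold, which was rare, with 3.47 CPM there and 0 to 0.886 CPM in the others. miR-142a followed at 5.86-fold. The median miRNA stood at 1.28-fold in this library, which had the highest share of miRNA reads, and 79 of the 209 (37.8%) were highest in it. Per 1000000 miRNA reads, which removes that difference, miR-451a was 13.6-fold and miR-144 10.1-fold above the median of the others, still the first and second places, and the median miRNA stood at 0.922. miR-486a and miR-486b were then below the others, at 0.743 and 0.770. With young replicate 1 left out, 138 of the 209 miRNAs had a highest-to-lowest CPM ratio at least as large as the 2.54 of miR-144. For miR-451a, 66 had a ratio at least as large as its 3.83. Per miRNA read the counts were 83 for miR-144 (ratio 3.08) and 45 for miR-451a (ratio 4.82).

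Most of the other miRNAs known from red blood cells were also high in young replicate 1. Of 19 on the list of these miRNAs 18 were listed in the files and 14 were tested, and 12 of these 14 were highest in this library. miR-185, at 1.08 times the median of the other libraries, and miR-182, at 1.35 times, were not. The count takes miR-16-1 and miR-16-2 apart, and miR-19b-1 and miR-19b-2, although the levels within each pair were nearly the same. miR-16-1, an abundant miRNA of blood and of many tissues, stood at 682 CPM there and at 248 to 437 CPM in the other libraries. Per miRNA read it was 1.34 times the median of the others and only 1.01 times the next library. miR-93 and miR-25, made together from an intron of Mcm7, stood at 169 and 142 CPM against 34.9 to 64.4 and 24.0 to 56.1 CPM. miR-15b was 5.10-fold above the median of the others. The summed level of the list was 1777 CPM in young replicate 1 and 574 and 726 CPM in young replicates 2 and 3. In old mice it was 595 to 932 CPM and in curcumin-treated mice 821 to 1028 CPM. Most of this sum was miR-16-1 and miR-16-2, at 682 and 683 CPM in young replicate 1, so it describes the rarer list members poorly. Young replicate 1 was 2.14-fold above the median of the others on this scale and 1.47-fold per miRNA read. miR-96 and miR-363, on the same list, were at or near 0 in all libraries.

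Of the miRNAs of white blood cells, some were high in the same library and some were low. The neutrophil and platelet miRNA miR-223 stood at 81.8 CPM in young replicate 1 and 17.8 to 45.0 CPM in the others. The lymphocyte miRNA miR-150 stood at 3.86 CPM, 0.562 times the median of the others, and miR-155 of activated lymphocytes and macrophages at 1.45 CPM, 0.329 times. miR-146a, induced by inflammatory signalling, stood at 103 CPM, 1.26 times. The pan-leukocyte miRNA was on the list as mir-142 and is named mir-142a in the files, where it stood at 263 CPM in young replicate 1 and 22.6 to 74.5 CPM in the others. It was looked up after its values were seen. The summed level of the 5 list members in the files, which leaves out miR-142a, was 194 CPM in young replicate 1. It was 83.5 and 103 CPM in young replicates 2 and 3. It was 74.4 to 143 CPM in old and 155 to 211 CPM in curcumin-treated mice. Young replicate 1 was at 1.55 times the median of the others for this sum, and at 1.00 times per miRNA read. For miR-142a, outside the sum, it was at 5.86 times and at 3.91 times per miRNA read. The sum therefore does not describe leukocyte miRNAs as a whole.

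Muscle miRNAs did not set young replicate 1 apart. The summed muscle list stood at 17083 CPM in it, below curcumin replicates 2 and 3 at 17630 and 17382 CPM. Of the 6 tested muscle precursors 1 was highest in young replicate 1. miR-122 of liver, a further miRNA of plasma, was at its lowest there, 0.965 CPM against 1.01 to 4.55 CPM in the other libraries. In bulk tissue more cells of a type and more RNA per cell cannot be told apart. The part of red or white blood cells in the levels of miR-144 and miR-451a was not tested.

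**Figure D3:**
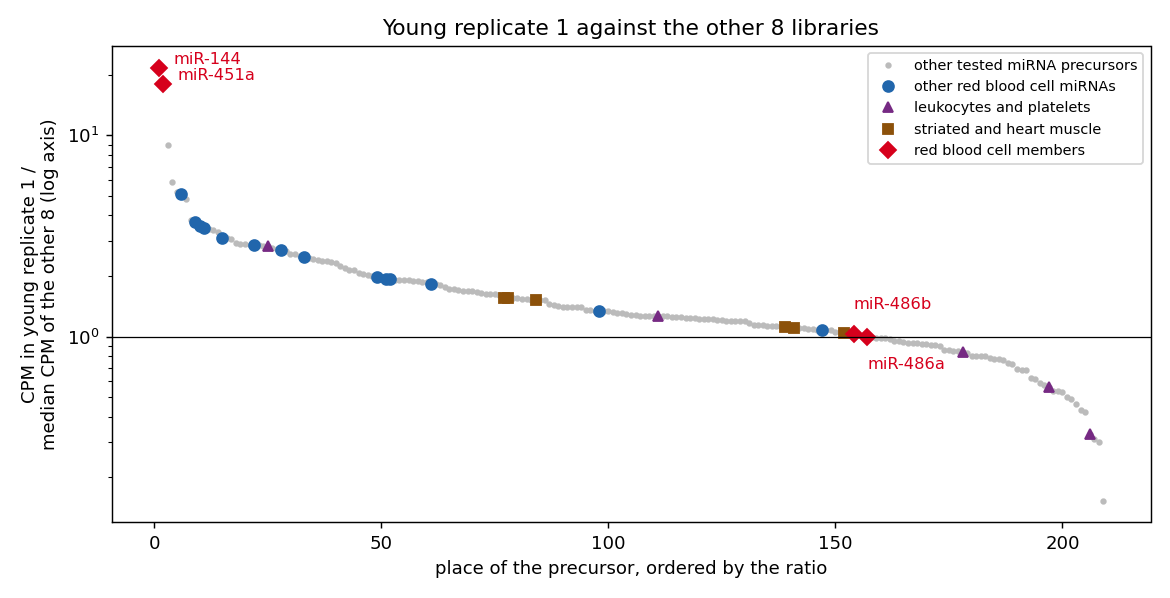
Ratio of CPM in young replicate 1 to the median CPM of the other 8 libraries (log axis) for each of 209 tested miRNA precursors, ordered by that ratio, with marker lists in colour. miR-144 (21.7) and miR-451a (18.1) hold the first places, other red blood cell miRNAs lie mostly toward the high end, and miR-486a and miR-486b lie at 1.00 and 1.02.

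The shared pattern was also seen in which miRNAs varied most like each member over the libraries, as Pearson's r of log2 CPM. These correlations are descriptions over 9 libraries that share their processing. The precursor most like miR-144 was miR-451a (r = 0.96, Spearman's rho 0.87), and r was 0.83 over 7 libraries without the 2 farthest from the median. miR-25 (r = 0.91), miR-93 (0.91), miR-16-2 (0.81) and miR-16-1 (0.81) followed, but leaving out the same 2 libraries took their r to 0.37, 0.50, 0.29 and 0.28. Those relations rest on young replicate 1 and curcumin replicate 2. For miR-451a the list was miR-144, miR-93 (0.86), miR-25 (0.85), miR-15b (0.76) and miR-337 (0.76). Without old replicate 3 and young replicate 1, r was 0.80 for miR-144 and 0.70 for miR-337, and 0.27 to 0.36 for the other 3. miR-337 was rare, at 0.844 CPM on average, so its r rests on few reads.

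miR-486 varied with different miRNAs. Summed over both precursors it was most like let-7d (r = 0.84), miR-714 (0.82), let-7b (0.82), miR-676 (0.79) and miR-423 (0.75). Without curcumin replicate 1 and young replicate 3, let-7b and miR-423 stayed at 0.82 and 0.81. In contrast, let-7d changed sign to −0.49, miR-676 to −0.08 and miR-714 fell to 0.41. miR-714 was rare, at 1.01 CPM on average. With miR-144 and miR-451a the r of miR-486 was 0.12 and 0.21 over 9 libraries, and 0.38 and 0.47 without young replicate 1.

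The first question was whether these miRNAs differ with age, in old against young mice. No member passed the test (edgeR's quasi-likelihood test, Benjamini-Hochberg adjusted p under 0.05 over 520 features), nor did any other feature (0%). miR-144 averaged 29.1 ± 41.3 CPM in young and 3.40 ± 0.212 CPM in old mice (SD, n = 3 in each group), a log2 change of −3.10 with a 95% interval of −5.38 to −0.82 (adjusted p = 0.999 by edgeR). miR-451a averaged 62.7 ± 90.8 and 7.61 ± 3.88 CPM, a log2 change of −3.05 (−5.59 to −0.50, adjusted p = 0.999 by edgeR). These were the largest changes among all 520 features, and their unadjusted p of 0.0128 and 0.0238 by edgeR were 2 of only 5 under 0.05 (0.962% of features). The young SD exceeds the young mean for both, and the groups overlap for every member.

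Both changes rested on young replicate 1. In its absence the young mean of miR-144 was 5.30 CPM and that of miR-451a 10.4 CPM. The log2 changes then came to −0.67 (SE 0.52) and −0.50 (SE 0.69). Within replicate numbers 1, 2 and 3 the log2 difference in CPM of miR-144 was −4.43, −0.01 and −1.17, and that of miR-451a −4.66, 1.46 and −1.94. The libraries of old and curcumin-treated mice numbered 1 had no such excess, with miR-144 at 3.56 and 3.31 CPM.

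miR-486 was a little lower in old mice without passing. The sum of both precursors was 53.4 ± 19.9 CPM in young and 38.7 ± 3.85 CPM in old mice, and the log2 changes were −0.47 (SE 0.42) for miR-486a and −0.46 (SE 0.42) for miR-486b. Young replicate 3 carried most of the difference, and leaving it out gave −0.13 and −0.14. Per 1000000 clean reads the old libraries were alike, at 31.7, 31.3 and 30.3, and the young ones were at 39.4, 32.6 and 57.9. The fitted values of all 4 members were below 0 and their median was −1.76, with miR-486a and miR-486b counted apart although they share reads. With young replicate 1 left out the 4 values were −0.67, −0.50, −0.71 and −0.70. For comparison, 54.8% of all features and 67% of miRNAs were below 0, and their medians were −0.04 and −0.15. Of the other red blood cell miRNAs 13 of 14 were below 0 (median −0.52) and none passed. Of these 14, 12 were highest in young replicate 1. With that library set aside, the summed level of the list, which is mostly miR-16-1 and miR-16-2, was not lower in old mice. It was 574 and 726 CPM in young replicates 2 and 3 and 595 to 932 CPM in old mice.

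The second question was what curcumin changed among mice of 18 months. This comparison held no library with an excess, and no member passed (0% of features called by edgeR, 4.04% with an unadjusted p under 0.05). miR-144 averaged 5.99 ± 2.42 CPM in curcumin-treated and 3.40 ± 0.212 CPM in old mice, a log2 change of 0.81 (95% interval −1.33 to 2.96, adjusted p = 0.917 by edgeR). It was higher within numbers 2 and 3, by 1.20 and 1.07, and −0.11 within number 1. miR-451a averaged 10.8 ± 5.20 and 7.61 ± 3.88 CPM, a log2 change of 0.51 (−1.87 to 2.89, adjusted p = 0.955 by edgeR). With miRNA precursors fitted alone it was 0.00, and that of miR-144 was 0.42. The spread in this fit is shared by all 3 groups. Without young replicate 1 the SE of miR-144 fell from 0.96 to 0.47 and its log2 change was 0.82 (adjusted p = 0.754 by edgeR).

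miR-486 had negative values in the same comparison, at −0.41 (95% interval −1.35 to 0.53) for miR-486a and −0.36 (−1.29 to 0.57) for miR-486b, both with adjusted p = 0.917 by edgeR. The size depended on curcumin replicate 1 and on the scale: with that library left out the changes were −0.09 and −0.05, and with clean-read totals −0.17 and −0.12. With miRNA precursors alone they were −0.84 and −0.78. The sum was 29.6 ± 10.8 CPM with curcumin and 38.7 ± 3.85 CPM without. Curcumin replicate 1, at 17.3 CPM, lay below all old libraries, as did replicate 2 at 34.3 CPM, while replicate 3 at 37.3 CPM lay within their range of 36.4 to 43.1 CPM. Of all features 43.5% and of miRNAs 23% had negative fitted values in this comparison. Of the other red blood cell miRNAs 13 of 14 had positive values, with a median of 0.36, and none passed. All 5 tested leukocyte and all 6 tested muscle miRNAs were positive too, with medians of 0.70 and 0.57, so positive values were not particular to blood miRNAs in this comparison.

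In curcumin-treated against young mice no member passed either (0% called by edgeR). miR-144 had a log2 change of −2.28 (SE 0.98) and miR-451a of −2.53 (SE 1.11), with adjusted p = 0.942 by edgeR for both. Their unadjusted p of 0.0428 and 0.0466 by edgeR were among 19 under 0.05 (3.65% of features). All 4 members were below 0, with a median of −1.58, as were 50.6% of all features. That median rested on the same library: leaving out young replicate 1 turned miR-144 to 0.15 (SE 0.53) and miR-451a to 0.04 (SE 0.69). This comparison shares its young libraries, young replicate 1 included, with that of old against young mice.

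miR-486 was the member whose difference from young mice did not come from young replicate 1. The log2 changes were −0.88 (SE 0.42) and −0.82 (SE 0.42) for miR-486a and miR-486b, with adjusted p = 0.942 by edgeR. Within numbers 1, 2 and 3 the summed miR-486 differed by −1.12, −0.46 and −1.02 on the log2 scale of CPM. The labels state no pairing by number, so these are not 3 paired differences. The changes were −1.11 and −1.05 with young replicate 1 left out. They were −0.47 and −0.42 with young replicate 3 left out. The groups of miR-486b did not overlap and those of miR-486a did, by a narrow margin in each case (5.58% of features did not overlap and were lower). With miRNA precursors alone the changes were −1.22 and −1.16 (adjusted p = 0.434 by edgeR for both). In a fit added after the data were seen, which also left out young replicate 1, both passed at −1.51 (SE 0.31) and −1.45 (SE 0.31) with adjusted p = 0.0457 by edgeR, among 10 of 222 precursors called.

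The level of miR-486 depended on the scale, and the share of miRNA differed among libraries. Per 1000000 miRNA reads the summed miR-486 stood at 845, 2431 and 3074 in young, 955, 2550 and 1280 in old and 520.2, 837 and 913 in curcumin-treated replicates 1 to 3. The libraries with the most miRNA, among them young replicate 1 (4.66% of clean reads) and curcumin replicate 2 (4.22%), had low values. Those with the least, young replicate 2 (1.34%) and old replicate 2 (1.23%), had high values. Per 1000 reads of miR-1a the order was alike, with 8.00, 8.94 and 8.66 in young replicates 2 and 3 and old replicate 2, and 1.49 to 3.74 in the other 6 libraries. Per 1000000 clean reads the range was narrower, 30.3 to 39.4 in 7 libraries, with curcumin replicate 1 at 16.7 and young replicate 3 at 57.9. The spread of miR-486 over libraries was therefore narrower relative to all clean reads than relative to miR-1a or to miRNA as a class.

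**Figure D4:**
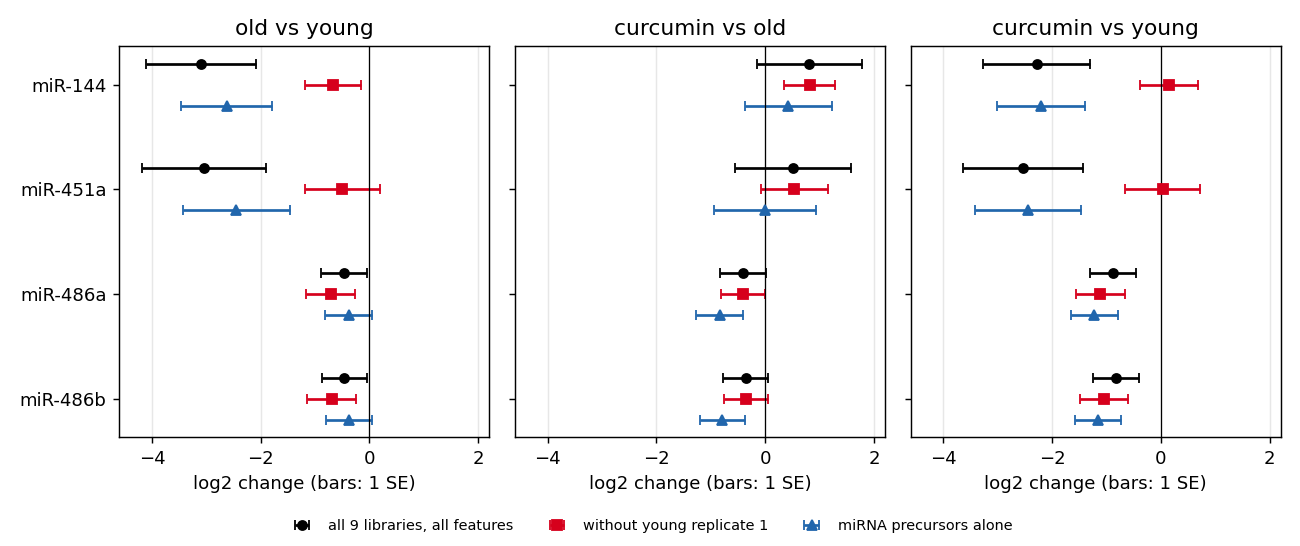
Fitted log2 changes with 1 SE for the 4 precursors in the 3 comparisons: all 9 libraries with all features, without young replicate 1, and with miRNA precursors alone. Leaving out young replicate 1 moves miR-144 from −3.10 to −0.67 in old against young mice and from −2.28 to 0.15 in curcumin-treated against young mice, while miR-486a and miR-486b keep negative values in every panel.

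miR-101a, which shares bases 2 to 7 with miR-144-3p, did not share the pattern of miR-144. It stood at 241 CPM in young replicate 1 and at 229 CPM in curcumin replicate 2, with 39.2 CPM at the lowest. Its excess over the median of the other 8 libraries was 1.96-fold in young replicate 1, against 21.7-fold for miR-144.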

How the data were processed

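PANDORA-seq libraries (AlkB and T4PNK treatment of RNA, gel fraction of 15 to 45 nucleotides) were deposited with estimated counts. Per the file headers, the authors gave reads per annotation with no normalization, and values that are not whole show reads divided among annotations that share them. The submitters' processing notes name cutadapt 2.5 and mm10. For the annotation tool and its settings the sources used here give nothing. Reads on and off the genome were summed (no member had reads off it), end classes were taken out of the whole tRNA species, and values were rounded. Features held 83.7% to 87.3% of clean reads. The test was edgeR's robust quasi-likelihood test over all 9 libraries (edgeR 4.0.16, R 4.3.3), with filterByExpr, TMM and the group as its only term, and Benjamini-Hochberg adjustment over 520 features. CPM used TMM, and log2 CPM a prior count of 2. Folds were predicted with RNAfold 2.7.2.

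The members and marker lists were chosen with earlier results of these data known. Named miRNAs were the members, up to 4 abundant members of each list, and the 5 precursors most correlated with each member. Others were named after the values were seen. These were miR-19a and miR-142a for their ratios in young replicate 1, and miR-185 and miR-182 as tested list members not highest there. List members below 1 CPM were named too, as was miR-101a for the bases it shares with miR-144-3p. Alternatives were RLE and clean-read scaling, DESeq2 1.42.0, limma-voom 3.58.1, other filters, fewer samples, miRNAs alone, summed loci and a replicate block. Deviations from group means correlated between libraries of the same number in old and young mice (r = 0.81, 0.62 and 0.27) and in curcumin-treated and young mice (0.33, 0.19 and 0.28), all above 0.1, but not in curcumin-treated and old mice (0.27, −0.07 and 0.37). Some libraries of different numbers correlated as highly (old 2 with young 3, r = 0.54; old 3 with young 2, r = 0.38; curcumin 2 with young 3, r = 0.22). In old and young mice the number 1 libraries correlated negatively with those numbered 2 and 3 (r = −0.73 to −0.40). Deviations from a group mean cancel out within the group, so a positive r with 1 library makes a negative r with another unavoidable. The negative values are therefore no further evidence that number 1 stands apart. The measure does not show that 2 pairs with 2 or 3 with 3. The labels do not say what the numbers share.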

Additional observations from a re-analysis of the deposited data

How the results depend on the processing

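Of 258 refitted log2 changes of the 4 members, 252 kept their sign and their side of the threshold. No member had passed in the main fit, so this count does not measure how stable the sizes were. The move of miR-144 from −3.10 to −0.67 in old against young mice without young replicate 1 counts as kept. miR-486a and miR-486b are counted apart although they share reads. With young replicate 1 left out, miR-144 and miR-451a in curcumin-treated against young mice reversed to 0.15 and 0.036, and over all single libraries left out they ranged from −2.72 to 0.15 and from −3.00 to 0.04. Without the 3 libraries numbered 1 they were 0.48 and 0.42, and edgeR called 73 features in curcumin-treated against old and 67 in curcumin-treated against young mice, against 0 with all libraries (21 and 19 unadjusted); no member was among them (smallest adjusted p = 0.0815 by edgeR, miR-144 against old). DESeq2 called 1 feature in curcumin-treated against young mice, the 5′ end of tRNA-His-GTG. In a fit chosen after the data were seen, with miRNA precursors alone and young replicate 1 left out, edgeR called 10 of 222 precursors in that comparison, among them miR-486a at −1.51 and miR-486b at −1.45 (adjusted p = 0.0457 by edgeR for both). The cause was not tested.

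In old against young mice, single libraries left out moved miR-144 between −3.61 and −0.67 and miR-451a between −3.61 and −0.50. limma-voom gave −1.93 and −1.81 for them, and −1.21 and −1.34 in curcumin-treated against young mice, and called no feature (2 and 16 with an unadjusted p under 0.05). With a replicate block the members' log2 changes were −2.38, −2.41, −0.39 and −0.40 in old against young mice. They were 0.99, 0.72, −0.50 and −0.44 in curcumin-treated against old mice and −1.39, −1.70, −0.89 and −0.84 in curcumin-treated against young mice. The block changed no call (0 features in each). With 38 to 143 reads of miR-144 outside young replicate 1, counting error limits differences among those libraries. With at least 50 reads required in every library, miR-144 and miR-451a were not tested and have no value.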
